A study of Mus musculus with 8 samples.

Results

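The genes described here are 32 mouse genes of the NRF2 pathway and of antioxidant defence, of 54838 gene rows in the count tables. They were chosen by symbol: each of the 32 symbols was matched through the mouse annotation GENCODE vM21 to 1 gene ID, and every ID had a row in both tables. By role they are 3 regulators, 13 genes of glutathione synthesis and use, 5 of thioredoxin and peroxide removal, 4 of quinone, carbonyl and haem metabolism, 4 of NADPH supply and 3 of efflux and other targets.

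The RNA came from MEFs (mouse embryonic fibroblasts, connective tissue cells grown from embryos), and its polyadenylated part was sequenced in 4 groups of 2 libraries each. The cells were cultured in DMEM with 10% fetal bovine serum at 5% CO2 and at 3 to 5% O2, which is below the oxygen of room air. The first group was senescent cells that spent 24 h in medium buffered with HEPES and set to an alkaline pH (alkaline medium). The second was senescent cells that spent 24 h in the matching control medium, also with HEPES (control medium). The next was senescent cells without a recorded change to such medium (n-Sen), and the last was proliferating cells. Senescence had been induced in the first 3 groups with nutlin3a, a compound that raises p53 by keeping its ubiquitin ligase MDM2 away. These cells were first arrested in G2 by RO3306, an inhibitor of CDK1, took nutlin3a alone for the last 48 h of induction, and then stayed for 14 days in 100 nM BI-2536, a PLK1 inhibitor used here to remove cells that still divided. The labels give neither the pH of the media nor the strain, embryo or number of cultures, and the p-values given here therefore rest on how far these samples spread, part of which may be technical.

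NRF2, the product of Nfe2l2, is a transcription factor that KEAP1 binds and hands to a ubiquitin ligase for degradation while oxidants and electrophiles are scarce. When cysteines of KEAP1 are modified, NRF2 escapes, pairs with a small MAF protein and binds antioxidant response elements beside genes that make glutathione, reduce thioredoxin, detoxify quinones and haem, and regenerate NADPH. BACH1 competes for the same elements and holds down several of these genes, Hmox1 above all. Fibroblasts use the pathway to cope with hydrogen peroxide and with electrophiles, and nutlin-stabilised p53 itself has targets among antioxidant genes.

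Promoter stretches are shown because these genes are usually grouped by the antioxidant response element. The 9-base core of that element, TGACNNNGC, was searched on both strands in windows from 250 bases before to 50 bases after each annotated start, taken from RefSeq on GRCm38.p6. A window was at hand for 27 of the 32 genes, and 10 of these 27 (37.0%) held the core, against 14.0% of 27025 genes with such windows. The related AP-1 site TGACTCA, which can lie inside the element, was in the windows of 4 of the 27 genes (14.8%), against 5.95% of all. Of the 27 genes, Prdx1 alone held both in one, as TGACTCAGC on the opposite strand (3.70%, against 0.503% of all). The stretches below run 5′ to 3′ on the strand of the gene, with the core in capitals. In Gclm, Txnrd1, Prdx1 and G6pdx, and in the second of the Abcc4 stretches, the core reads on the opposite strand and so appears as its reverse complement.
Nfe2l2 (chr2:75704869-75704913, minus strand, core 240 bases before the start): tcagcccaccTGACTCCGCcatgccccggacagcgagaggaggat
Gclm (chr3:122245397-122245457, plus strand, 134 before): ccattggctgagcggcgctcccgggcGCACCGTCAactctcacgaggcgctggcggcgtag
Gsta3 (chr1:21240438-21240498, plus strand, 121 before): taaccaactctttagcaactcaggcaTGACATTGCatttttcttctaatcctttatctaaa
Txnrd1 (chr10:82859088-82859148, plus strand, 92 before): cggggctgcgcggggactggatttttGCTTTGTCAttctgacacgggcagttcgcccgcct
Prdx1 (chr4:116685440-116685500, plus strand, 133 before): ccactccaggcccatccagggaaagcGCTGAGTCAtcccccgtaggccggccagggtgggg
G6pdx (chrX:74428903-74428963, minus strand, 57 before): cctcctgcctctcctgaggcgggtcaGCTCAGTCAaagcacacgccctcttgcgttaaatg
Abcc4 (chr14:118676932-118676980, minus strand, 23 before): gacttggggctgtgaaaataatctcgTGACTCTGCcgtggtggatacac
Abcc4 (chr14:118706220-118706270, minus strand, 25 before another start): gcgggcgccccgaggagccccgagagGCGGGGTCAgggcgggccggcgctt
Mgst1, Srxn1 and Pgd also held the core, the last 2 of them 28 and 3 bases after a start. Genes whose windows held no core included Nqo1, Slc7a11, Cbr3, Cat, Gss and Osgin1. Gclc, Gsr, Gsta4, Hmox1 and Abcc1 had no window and were not searched. A match of letters is a description of the window and not a bound site, and the windows do not reach the distal enhancers of these genes.

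Total counts ran from 40608517 to 54183060 per library. The counts of the 2 libraries in a group differed beyond counting noise, at a chi-square of between 4.63 and 7.39 for each degree of freedom, which does not tell separate cultures from separate preparations. Mki67, the proliferation antigen Ki-67, stood between 6.02 and 9.88 CPM, the count scaled to a common library size, in the 6 senescent libraries, against 410 and 427 CPM in proliferating cells. Fibroblast markers summed to between 38648 and 44263 CPM in the 6 senescent libraries and to 19534 and 19092 CPM in proliferating ones. Fn1, fibronectin, made up the largest part of these sums, with 20592 and 19915 CPM in n-Sen cells against 5537 and 5494 CPM in proliferating cells. Not every fibroblast marker followed it: the receptor Pdgfra had 10.7 and 8.91 CPM in n-Sen cells against 84.5 and 91.3 CPM in proliferating cells, and the surface antigen Thy1 had 378 and 385 CPM in n-Sen cells against 469 and 419 CPM in proliferating cells. Markers of macrophages were present too: the 20 markers summed to 1140 and 1135 CPM in alkaline medium, 1293 and 1226 CPM in control medium, 1257 and 1335 CPM in n-Sen cells, and 65.3 and 57.3 CPM in proliferating cells. None of the 20 was at 0 throughout a group, except Cd163 in n-Sen cells. Cd163 was at the floor elsewhere too, with at most 2 counts in a group, and was not tested in any comparison. In such bulk RNA, fewer cells of a type and less RNA per cell cannot be told apart.

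The question behind the first comparison is what a more alkaline medium does to the transcripts of senescent cells, whose interior the study treats as acidified. Transcripts of this set were lower in alkaline medium: 21 of the 32 genes were lower and 0 were higher than in control medium. The strongest falls among the called genes were in Nqo1, Gsta4 and Gclc, which were left at between 0.38 and 0.46 of their level in control medium. Of the regulators, Nfe2l2 itself was lower, and Keap1 and Bach1 did not pass the test. A gene passed when edgeR's quasi-likelihood test gave it a Benjamini-Hochberg adjusted p under 0.05 over all genes tested. Of the 19129 genes tested, 20.0% passed, 9.58% as higher and 10.4% as lower. The members' share of 65.6% thus stood above the background, and each of the 21 lay on the lower side. At an unadjusted p under 0.05, 25 members were lower and 0 higher, but the share of all genes at that threshold was not counted. DESeq2's test gave 18 members lower and 0 higher, beside 1358 lower and 1419 higher over the 54838 gene rows. The median log2 fold change, alkaline over control medium, was -0.34 over the members and -0.01 over all genes tested. The 2 alkaline libraries did not overlap the 2 control-medium libraries for 28 of the 32 members, where 56.7% of all genes tested showed no overlap. Beside these falls, 10 of the 19 macrophage markers tested were lower in alkaline medium, at a median log2 fold change of -0.29. Of the 14 fibroblast markers, 4 were higher and 6 lower (median -0.09): Col1a1, a collagen chain, was higher (0.42 ± 0.04, adjusted p = 3.82e-08), and Pdgfra (-1.05 ± 0.14, adjusted p = 3.39e-06) and the matrix proteoglycan Lum (-1.43 ± 0.23, adjusted p = 6.35e-05; adjusted p = 0.0641 by DESeq2) were lower. The adipocyte markers Lpl (-1.16 ± 0.11, adjusted p = 1.97e-08) and Pparg (-0.91 ± 0.20, adjusted p = 0.00226) were the 2 lower of 3. Of the endothelial markers 1 of 5 was higher, and of the epithelial ones 0 of 4 passed. The part of these markers in the result was not tested.

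**Figure D1:**
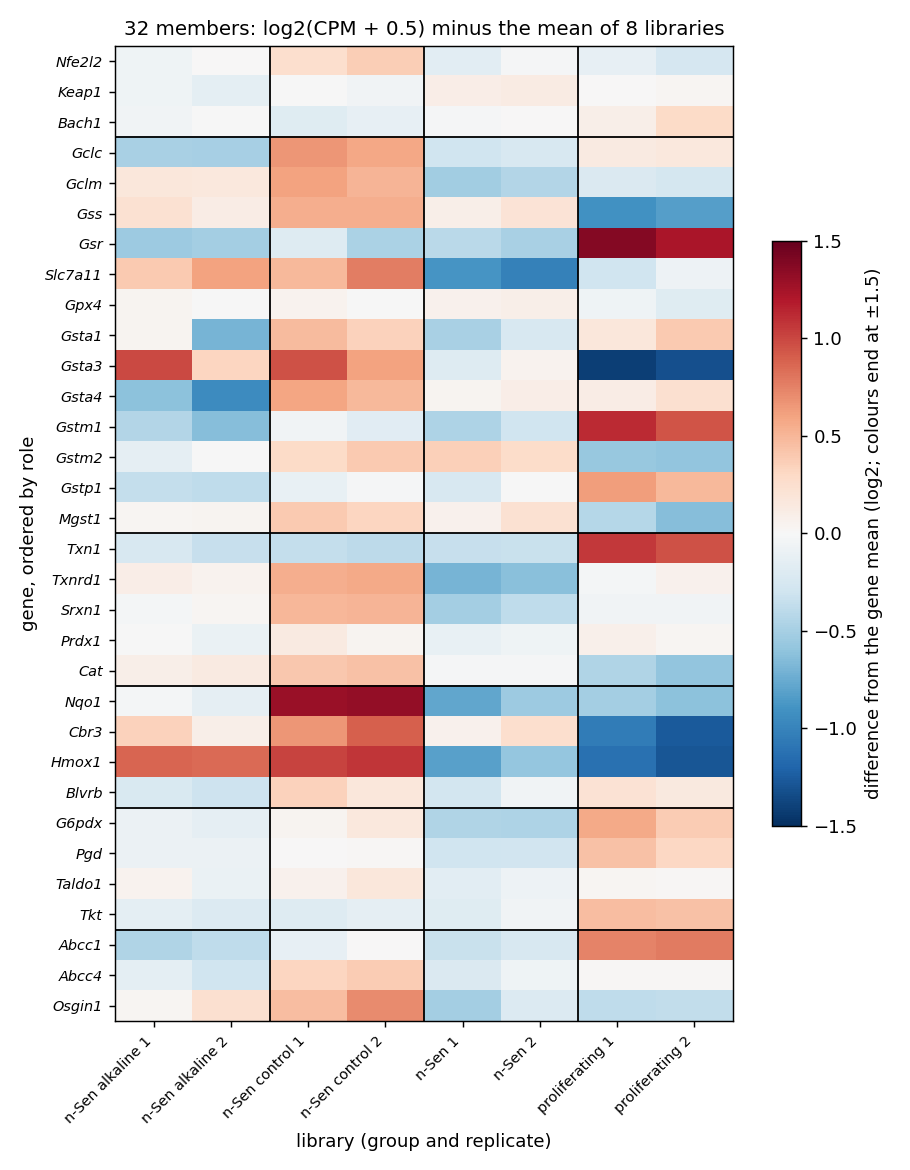
Each row is one of the 32 genes and each column a library. Colour gives log2(CPM + 0.5) minus the mean of the gene over the 8 libraries, red above and blue below that mean, with colours ending at 1.5. The control-medium columns are red for the genes from Gclc to Slc7a11 other than Gsr, and for Txnrd1, Srxn1, Nqo1, Cbr3 and Hmox1, while Gsr, Gstm1, Txn1 and Abcc1 are red in the proliferating columns.

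Values below are CPM on library sizes scaled by TMM over the 8 libraries, fold changes are on the log2 scale with their standard error, and every adjusted p is that of edgeR's quasi-likelihood test. Among the regulators, Nfe2l2 (mm10 chromosome 2, 75675513 to 75704641) stood at 85.4 and 89.5 CPM in alkaline medium, 106 and 115 CPM in control medium, 80.0 and 88.6 CPM in n-Sen cells and 81.7 and 74.9 CPM in proliferating cells. Both control-medium libraries were above the other 6, which lay close together. The log2 fold change of alkaline over control medium was -0.35 ± 0.05 (adjusted p = 3.91e-05). Keap1, the adaptor that marks NRF2 for degradation, had 45.8 and 43.2 CPM in alkaline medium, 47.5 and 46.1 CPM in control medium, 51.4 and 51.9 CPM in n-Sen cells and 48.1 and 48.6 CPM in proliferating cells. Its range over the 8 libraries was narrow, and the difference between the media did not pass (-0.08 ± 0.06, adjusted p = 0.459). Bach1, the repressor, had 46.0 and 47.4 CPM in alkaline medium, 42.1 and 44.0 CPM in control medium, 47.3 and 47.9 CPM in n-Sen cells and 50.7 and 58.6 CPM in proliferating cells. It was one of 2 members with a positive fold change between the media, and it did not pass (0.11 ± 0.06, adjusted p = 0.262).

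Of the 13 glutathione genes, 8 were lower in alkaline medium. The first step of glutathione synthesis is made by a catalytic and a modifier subunit, and both were lower. Gclc, the catalytic subunit (chromosome 9, 77754535 to 77794485), had 41.7 and 41.1 CPM in alkaline medium, 92.4 and 87.1 CPM in control medium, 47.2 and 49.4 CPM in n-Sen cells and 64.0 and 65.1 CPM in proliferating cells. The alkaline libraries were the lowest of the 8 and the control-medium ones the highest, with a log2 fold change of -1.13 ± 0.06 (adjusted p = 1.70e-12). Gclm, the modifier subunit, had 114 and 113 CPM in alkaline medium, 154 and 144 CPM in control medium, 70.1 and 74.2 CPM in n-Sen cells and 87.0 and 84.3 CPM in proliferating cells. Here the alkaline libraries lay between control medium and the other groups (-0.40 ± 0.05, adjusted p = 1.65e-06). Gss, which adds the glycine that completes glutathione, had 68.8 and 63.0 CPM in alkaline medium, 85.4 and 85.7 CPM in control medium, 62.4 and 67.6 CPM in n-Sen cells and 30.8 and 32.6 CPM in proliferating cells. Its alkaline libraries overlapped those of n-Sen cells and were below control medium (-0.38 ± 0.06, adjusted p = 2.50e-05). Slc7a11, the cystine importer that feeds this synthesis, had 20.9 and 24.4 CPM in alkaline medium, 22.4 and 27.5 CPM in control medium, 8.38 and 7.63 CPM in n-Sen cells and 12.8 and 15.1 CPM in proliferating cells. Unlike for Gclc, the media overlapped and the difference did not pass (-0.14 ± 0.10, adjusted p = 0.367), although it passed without control medium replicate 1 (adjusted p = 0.0493). Gclm and Gss share exon bases with other annotated genes on mm10, as do Keap1 and G6pdx, and Tkt by 1 base. The counts of these members may therefore include reads of those other genes.

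The other glutathione genes reduce, spend or conjugate it. Gsr, which returns oxidised glutathione to the reduced form, had 16.6 and 17.1 CPM in alkaline medium, 21.4 and 17.5 CPM in control medium, 18.4 and 17.3 CPM in n-Sen cells and 64.5 and 57.9 CPM in proliferating cells. The senescent groups were alike beside the proliferating one, and the media did not differ past the threshold (-0.21 ± 0.10, adjusted p = 0.16), but did without control medium replicate 2 (adjusted p = 0.0228). Gpx4, the peroxidase that repairs lipid hydroperoxides, varied little, at 234 and 228 CPM in alkaline medium, 237 and 227 CPM in control medium, 239 and 241 CPM in n-Sen cells and 219 and 201 CPM in proliferating cells. The media overlapped (-0.01 ± 0.04, adjusted p = 0.899).

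Glutathione transferases couple glutathione to electrophiles, and Gsta4 acts above all on 4-hydroxynonenal, a product of lipid peroxidation. Gsta4 (chromosome 9, 78182774 to 78209349) had 8.50 and 6.64 CPM in alkaline medium, 20.2 and 18.8 CPM in control medium, 13.6 and 14.3 CPM in n-Sen cells and 14.4 and 15.8 CPM in proliferating cells. Alkaline medium gave the lowest 2 libraries of the 8 and control medium the highest 2 (-1.37 ± 0.12, adjusted p = 1.00e-08). Gstm1, a mu-class transferase, had 10.8 and 9.28 CPM in alkaline medium against 14.2 and 13.0 CPM in control medium (-0.45 ± 0.12, adjusted p = 0.00668). Gstm2, its neighbour on chromosome 3, had 16.5 and 18.0 CPM in alkaline medium against 22.2 and 23.9 CPM in control medium (-0.43 ± 0.09, adjusted p = 0.00148). Gstp1, the pi-class enzyme, had 16.4 and 16.1 CPM in alkaline medium against 19.6 and 20.9 CPM in control medium (-0.32 ± 0.09, adjusted p = 0.0151). The alkaline libraries were thus below both control-medium libraries for each of these 4 transferases. Mgst1, a membrane-bound transferase and peroxidase, had 14.9 and 15.1 CPM in alkaline medium against 19.3 and 18.4 CPM in control medium (-0.34 ± 0.10, adjusted p = 0.0139). Some of these calls changed with the test or with a library left out. DESeq2's test called neither Gstp1 (adjusted p = 0.0712) nor Mgst1 (adjusted p = 0.0680). With a library left out, Gstm1 no longer passed without control medium replicate 1 (adjusted p = 0.0510) or alkaline medium replicate 2 (adjusted p = 0.0732), Gstp1 without control medium replicate 2 (adjusted p = 0.117) or alkaline medium replicate 2 (adjusted p = 0.0593), and Mgst1 without control medium replicate 1 (adjusted p = 0.0915) or alkaline medium replicate 1 (adjusted p = 0.0516). Gsta1 was near the floor of the data, at 0.372 and 0.0227 CPM in alkaline medium, 0.677 and 0.583 CPM in control medium, 0.107 and 0.222 CPM in n-Sen cells and 0.456 and 0.617 CPM in proliferating cells. It rested on 16 counts in alkaline and 62 in control medium and did not pass (-1.70 ± 0.71, adjusted p = 0.101), but did without alkaline medium replicate 1 (adjusted p = 0.00181). Gsta3, also an alpha-class enzyme, had 3.17 and 1.80 CPM in alkaline medium, 3.08 and 2.31 CPM in control medium, 1.11 and 1.41 CPM in n-Sen cells and 0.192 and 0.239 CPM in proliferating cells, with overlapping media (-0.13 ± 0.26, adjusted p = 0.802). Transferases come in gene families, and reads may be shared between similar copies. Gstp1 had a fractional count in all 8 libraries, and Gstm1, Gstm2, Gsta1 and Gsta3 had one in between 1 and 3 libraries. Gsta4 and Mgst1 had no fractional count in any library.

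In the thioredoxin system, 4 of 5 genes were lower in alkaline medium, and the exception was thioredoxin itself. Txnrd1, the reductase that recharges thioredoxin (chromosome 10, 82833951 to 82897712), had 478 and 462 CPM in alkaline medium, 652 and 661 CPM in control medium, 275 and 289 CPM in n-Sen cells and 437 and 464 CPM in proliferating cells. Its alkaline libraries were level with proliferating cells and below control medium (-0.49 ± 0.04, adjusted p = 3.09e-09). Srxn1, which repairs over-oxidised peroxiredoxins, had 91.7 and 95.2 CPM in alkaline medium, 132 and 133 CPM in control medium, 65.6 and 71.5 CPM in n-Sen cells and 90.4 and 90.3 CPM in proliferating cells. The order of groups was that of Txnrd1, and the fall was of like size (-0.51 ± 0.05, adjusted p = 4.05e-08). Cat, the peroxisomal catalase, had 96.7 and 100.0 CPM in alkaline medium, 120.4 and 123 CPM in control medium, 89.4 and 89.9 CPM in n-Sen cells and 66.0 and 60.0 CPM in proliferating cells (-0.32 ± 0.05, adjusted p = 4.50e-05). Prdx1, a peroxiredoxin, had 445 and 416 CPM in alkaline medium, 489 and 457 CPM in control medium, 413 and 428 CPM in n-Sen cells and 471 and 456 CPM in proliferating cells. Its small fall (-0.14 ± 0.04, adjusted p = 0.0254) no longer passed without control medium replicate 1 (adjusted p = 0.132) or alkaline medium replicate 2 (adjusted p = 0.289), nor in a fit of all 8 libraries (adjusted p = 0.0514). Txn1, thioredoxin, had 129 and 120.3 CPM in alkaline medium, 119 and 116 CPM in control medium, 119.6 and 121 CPM in n-Sen cells and 319.5 and 295 CPM in proliferating cells. The 6 senescent libraries were close together, and the media did not differ past the threshold (0.08 ± 0.05, adjusted p = 0.336).

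All 4 genes of quinone, carbonyl and haem metabolism were lower in alkaline medium. Nqo1, the quinone reductase often used as the reporter of NRF2 activity (chromosome 8, 107388225 to 107403206), had 99.8 and 92.8 CPM in alkaline medium, 251 and 256 CPM in control medium, 59.4 and 69.9 CPM in n-Sen cells and 71.3 and 66.7 CPM in proliferating cells. Control medium stood far above the other 6 libraries, and the fall in alkaline medium (-1.40 ± 0.05, adjusted p = 5.06e-15) had the smallest p of the 32 members. Hmox1, which opens the haem ring and is held down by BACH1 (chromosome 8, 75093621 to 75100589), had 950.1 and 936 CPM in alkaline medium, 1049 and 1089 CPM in control medium, 295 and 347 CPM in n-Sen cells and 239 and 214 CPM in proliferating cells. In contrast to Nqo1, its alkaline libraries stayed near control medium and far above the other groups, with a small fall (-0.19 ± 0.04, adjusted p = 6.83e-04). Cbr3, a carbonyl reductase, had 21.1 and 17.6 CPM in alkaline medium, 26.5 and 31.2 CPM in control medium, 17.3 and 19.7 CPM in n-Sen cells and 7.71 and 6.61 CPM in proliferating cells (-0.58 ± 0.10, adjusted p = 1.06e-04). Blvrb, a biliverdin reductase, had 11.9 and 11.2 CPM in alkaline medium, 18.0 and 15.8 CPM in control medium, 11.6 and 13.5 CPM in n-Sen cells and 16.5 and 15.6 CPM in proliferating cells (-0.55 ± 0.11, adjusted p = 4.90e-04). For both, the alkaline libraries overlapped those of n-Sen cells and lay below those of control medium.

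The 4 enzymes of the pentose phosphate pathway, which makes NADPH for both reducing systems, gave 1 lower gene. G6pdx, which catalyses the first step, had 69.6 and 67.5 CPM in alkaline medium, 76.0 and 82.9 CPM in control medium, 53.8 and 53.3 CPM in n-Sen cells and 110.0 and 96.2 CPM in proliferating cells. The groups did not overlap, and the fall (-0.22 ± 0.06, adjusted p = 0.00834) was lost without control medium replicate 2 (adjusted p = 0.119) or alkaline medium replicate 2 (adjusted p = 0.0514). Pgd, the second NADPH-making step, had 205 and 203 CPM in alkaline medium, 217 and 219 CPM in control medium, 176 and 177 CPM in n-Sen cells and 293 and 269 CPM in proliferating cells, and the media did not differ past the threshold (-0.10 ± 0.04, adjusted p = 0.099). Taldo1, transaldolase, had 109 and 98.6 CPM in alkaline medium, 109.8 and 118 CPM in control medium, 94.1 and 99.9 CPM in n-Sen cells and 108 and 106 CPM in proliferating cells. It too missed the threshold (-0.14 ± 0.06, adjusted p = 0.0808), but passed without alkaline medium replicate 1 (adjusted p = 0.0134) or control medium replicate 1 (adjusted p = 0.0116). Tkt, transketolase, had 202 and 195 CPM in alkaline medium, 197 and 205 CPM in control medium, 198 and 217 CPM in n-Sen cells and 309 and 304 CPM in proliferating cells, and its media overlapped (-0.02 ± 0.05, adjusted p = 0.793).

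The 3 efflux and other targets were all lower. Abcc1, a pump for glutathione conjugates, had 91.3 and 95.5 CPM in alkaline medium, 115 and 126 CPM in control medium, 98.9 and 105 CPM in n-Sen cells and 209 and 214 CPM in proliferating cells (-0.37 ± 0.05, adjusted p = 1.74e-05). Abcc4, a pump for organic anions and cyclic nucleotides, had 16.7 and 15.0 CPM in alkaline medium, 23.3 and 24.3 CPM in control medium, 15.9 and 17.7 CPM in n-Sen cells and 18.8 in both proliferating libraries (-0.59 ± 0.09, adjusted p = 4.34e-05). Abcc1 was lowest of the 4 groups in alkaline medium, whereas the alkaline libraries of Abcc4 overlapped those of n-Sen cells. Osgin1, an oxidative stress induced growth inhibitor, had 5.15 and 6.05 CPM in alkaline medium, 7.14 and 8.53 CPM in control medium, 3.39 and 4.30 CPM in n-Sen cells and 3.74 and 3.78 CPM in proliferating cells. Its fall (-0.49 ± 0.15, adjusted p = 0.0218) was lost by DESeq2's test (adjusted p = 0.120) and without control medium replicate 2 (adjusted p = 0.204) or alkaline medium replicate 1 (adjusted p = 0.136).

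**Figure D2:**
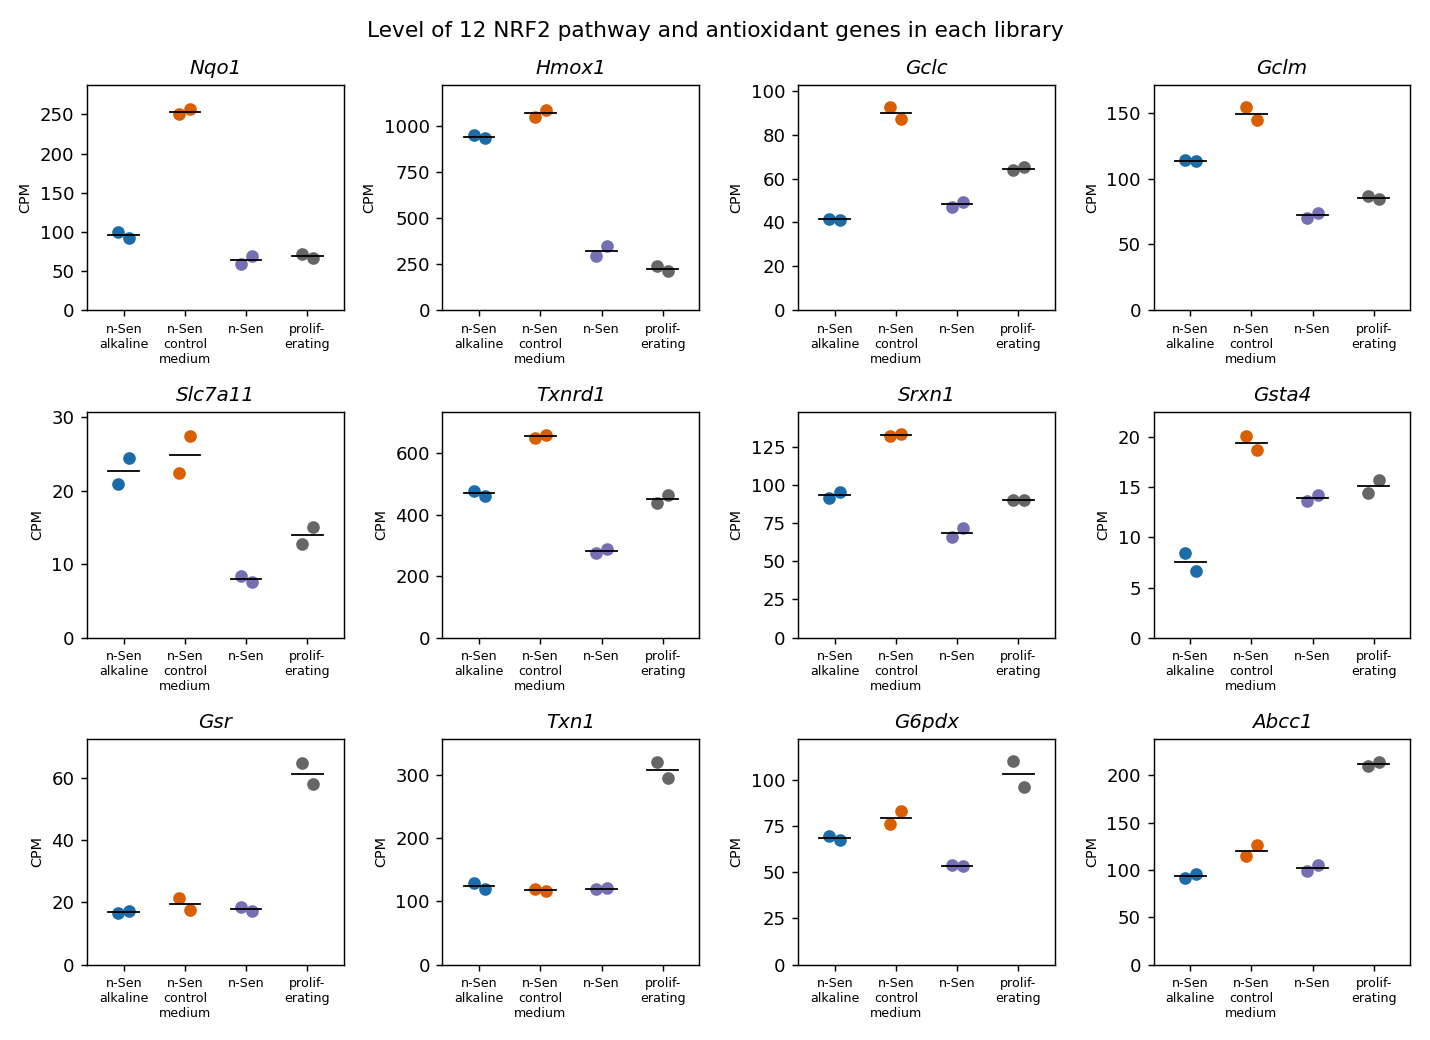
CPM of 12 of the genes in each of the 8 libraries (points, 2 per group), with the group mean as a line and each vertical axis starting at 0. For Nqo1, Gclc, Gclm, Txnrd1, Srxn1 and Gsta4 the control-medium points are the highest of the 4 groups, Hmox1 and Slc7a11 are high in both media, and Gsr, Txn1, G6pdx and Abcc1 are highest in proliferating cells.

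The second comparison sets senescent cells in control medium against n-Sen cells, and so asks what 24 h in HEPES-buffered medium at the control pH went with. Here the set lay on the higher side: 21 of the 32 members were higher in control medium and 0 were lower. Nqo1 was 3.92 times, Hmox1 3.33 times and Slc7a11 3.12 times its level in n-Sen cells. Of the 20215 genes tested in the fit of all 8 libraries, 11.1% passed, 6.18% as higher and 4.96% as lower, and the members' share was 65.6%. At an unadjusted p under 0.05, 23 members were higher and 1, Keap1, was lower, but the share of all genes at that threshold was not counted. DESeq2's test gave 20 members higher and 0 lower, beside 1035 higher and 974 lower over the 54838 gene rows. The members' median log2 fold change, control medium over n-Sen, was 0.41, against 0.00 over all genes tested. For 28 of the members the groups did not overlap, where 52.0% of all genes showed no overlap. The 20 macrophage markers had a near level sum in these 2 groups, with 1 of the 19 tested lower. Lyz2 made up the largest part of that sum, with 732 and 672 CPM in control medium and 712 and 751 CPM in n-Sen cells. The libraries come from separate tables and the labels do not say whether they were grown and sequenced together, so the medium and such a batch cannot be told apart.

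By role, 1 regulator, 6 glutathione genes, 4 thioredoxin genes, 4 quinone and haem genes, 3 NADPH genes and the 3 efflux and other targets were higher in control medium. Among regulators the higher one was Nfe2l2 (0.39 ± 0.06, adjusted p = 1.63e-04). Keap1 (-0.14 ± 0.06, adjusted p = 0.18) and Bach1 (-0.15 ± 0.07, adjusted p = 0.231) did not pass, although their control-medium libraries lay below those of n-Sen cells. In glutathione synthesis, both ligase subunits, the cystine importer and Gss were higher. Slc7a11 had a log2 fold change of 1.64 ± 0.12 (adjusted p = 4.23e-09), Gclm of 1.05 ± 0.05 (adjusted p = 1.72e-11) and Gclc of 0.89 ± 0.06 (adjusted p = 8.14e-10). Gss followed with 0.40 ± 0.06 (adjusted p = 1.70e-04). The alpha-class transferases Gsta3 and Gsta4 completed the 6, and neither call held without every library. Gsta3 (1.09 ± 0.30, adjusted p = 0.0194) lost its call by DESeq2's test (adjusted p = 0.0599) and without n-Sen replicate 1 (adjusted p = 0.171), n-Sen replicate 2 (adjusted p = 0.0560) or control medium replicate 1 (adjusted p = 0.211). Gsta4 (0.48 ± 0.11, adjusted p = 0.00696) lost it without n-Sen replicate 1 (adjusted p = 0.0811) or control medium replicate 1 (adjusted p = 0.0929). The mu and pi classes did not pass, with Gstm1 at 0.27 ± 0.11 (adjusted p = 0.134), Gstm2 at 0.02 ± 0.09 (adjusted p = 0.922) and Gstp1 at 0.05 ± 0.10 (adjusted p = 0.824), nor did Mgst1, Gsr, Gpx4 and Gsta1.

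The reductase Txnrd1 (1.22 ± 0.04, adjusted p = 3.41e-14) and Srxn1 (0.95 ± 0.06, adjusted p = 8.86e-11) led the thioredoxin genes, followed by Cat (0.44 ± 0.06, adjusted p = 9.07e-06). Prdx1 was slightly higher (0.17 ± 0.05, adjusted p = 0.0203), and not without n-Sen replicate 1 (adjusted p = 0.219), n-Sen replicate 2 (adjusted p = 0.0666) or control medium replicate 1 (adjusted p = 0.244). Thioredoxin, Txn1, did not pass (-0.03 ± 0.05, adjusted p = 0.803). Nqo1 showed the largest log2 fold change of the members that passed (1.97 ± 0.07, adjusted p = 1.18e-14), with Hmox1 next among the haem and quinone genes (1.74 ± 0.06, adjusted p = 1.90e-14). Cbr3 was higher by 0.64 ± 0.11 (adjusted p = 4.32e-04). Blvrb was higher by 0.43 ± 0.11 (adjusted p = 0.0131), and not without n-Sen replicate 1 (adjusted p = 0.196) or control medium replicate 1 (adjusted p = 0.187). In the NADPH pathway, G6pdx (0.57 ± 0.07, adjusted p = 3.19e-06) and Pgd (0.30 ± 0.05, adjusted p = 1.61e-04) were higher. Taldo1 was as well (0.23 ± 0.06, adjusted p = 0.0117), except without n-Sen replicate 1 (adjusted p = 0.174) or control medium replicate 2 (adjusted p = 0.165), and Tkt did not pass (-0.04 ± 0.05, adjusted p = 0.683). Osgin1 was higher by 1.02 ± 0.17 (adjusted p = 2.17e-04) and Abcc4 by 0.50 ± 0.09 (adjusted p = 9.87e-04). Abcc1 was higher by 0.24 ± 0.06 (adjusted p = 0.00693), a call lost without n-Sen replicate 1 (adjusted p = 0.140) or control medium replicate 2 (adjusted p = 0.143).

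**Figure D3:**
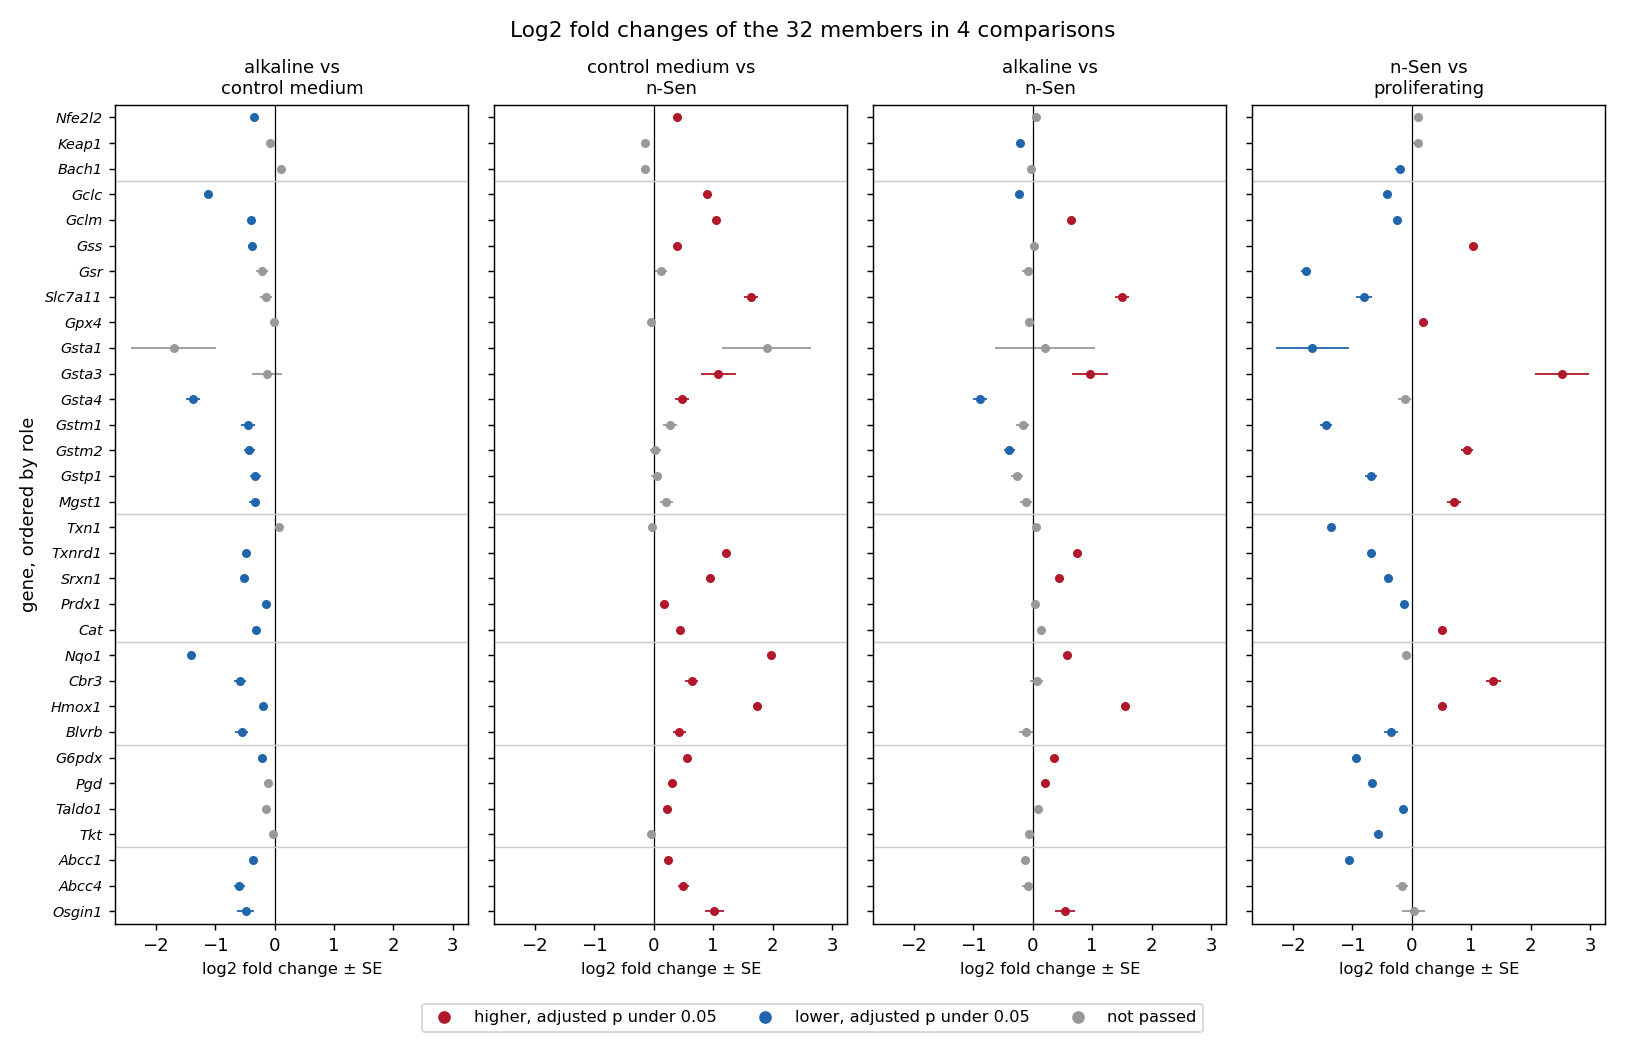
Log2 fold changes (points, with bars of 1 standard error) of the 32 genes, in rows ordered by role, in the 4 comparisons named above the panels; red passed as higher, blue passed as lower and grey did not pass. The first panel has 21 blue points and no red one, the second has 21 red points and no blue one, the next has 10 red and 4 blue points and the last 8 red and 18 blue.

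These 2 comparisons share the control-medium libraries, so a high or low level there moves both, and their opposite directions are not separate evidence. Their values stand side by side in the plot of fold changes. In the levels, both control-medium libraries were above the other 6 libraries for 15 of the 32 members, where 5.99% of the 20215 genes tested showed this order. They were above the other 4 senescent libraries for 22 members, where 9.87% of these genes did. Summed over the 32 genes, the level was 3766 and 3665 CPM in alkaline medium, 4510 and 4558 CPM in control medium, 2691 and 2857 CPM in n-Sen cells and 3533 and 3415 CPM in proliferating cells.

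A further comparison, added after values of the first 2 had been seen, sets alkaline medium directly against n-Sen cells. It divided the set: 10 members were higher in alkaline medium, 4 were lower and 18 did not pass, at a median log2 fold change of 0.04 against -0.01 over all genes tested. The background of this comparison was 24.8% of 20215 genes, 12.7% higher and 12.1% lower. Its 2 groups were deposited separately as well, so the medium and a batch cannot be told apart here either. The groups did not overlap for 20 members, against a background of 60.3% of genes. Hmox1 (1.56 ± 0.06, adjusted p = 4.14e-14) and Slc7a11 (1.51 ± 0.12, adjusted p = 5.29e-09) stood at 2.94 and 2.84 times their levels in n-Sen cells. Txnrd1 (0.74 ± 0.04, adjusted p = 4.81e-11), Gclm (0.65 ± 0.06, adjusted p = 8.70e-09), Nqo1 (0.57 ± 0.07, adjusted p = 9.23e-07) and Srxn1 (0.45 ± 0.06, adjusted p = 2.61e-06) were higher by less. The NADPH enzymes G6pdx (0.36 ± 0.07, adjusted p = 3.48e-04) and Pgd (0.21 ± 0.05, adjusted p = 0.0028) were higher too. Of the last 2 of the 10, Gsta3 (0.97 ± 0.30, adjusted p = 0.0216) lost its call by DESeq2's test (adjusted p = 0.0755) and without n-Sen replicate 1 (adjusted p = 0.159) or alkaline medium replicate 1 (adjusted p = 0.389), and Osgin1 (0.54 ± 0.17, adjusted p = 0.0239) by DESeq2's test (adjusted p = 0.0716) and without n-Sen replicate 1 (adjusted p = 0.234) or alkaline medium replicate 2 (adjusted p = 0.206).

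The 4 lower members were Gsta4 (-0.89 ± 0.12, adjusted p = 1.00e-05), Gstm2 (-0.39 ± 0.09, adjusted p = 0.00342), Gclc (-0.22 ± 0.06, adjusted p = 0.0104) and Keap1 (-0.22 ± 0.06, adjusted p = 0.0166). The 2 subunits of the glutamate-cysteine ligase thus stood on opposite sides of n-Sen cells, Gclm above and Gclc below. Of the 4, Gsta4 alone passed in every fit that left out a library. Keap1 and Gclc both failed without n-Sen replicate 2 (adjusted p = 0.0891 and 0.105) or alkaline medium replicate 2 (adjusted p = 0.171 and 0.0790), Keap1 also without n-Sen replicate 1 (adjusted p = 0.0681), Gclc also without alkaline medium replicate 1 (adjusted p = 0.0505), and Gstm2 without alkaline medium replicate 1 (adjusted p = 0.0560). The number lower was then 2 without n-Sen replicate 2, alkaline medium replicate 1 or alkaline medium replicate 2. Nfe2l2 (0.05 ± 0.06, adjusted p = 0.622), Gss, Cbr3, Blvrb and Abcc4 had alkaline libraries that overlapped those of n-Sen cells. Of the macrophage markers, 11 of the 19 tested were lower in alkaline medium than in n-Sen cells. Of the 14 fibroblast markers 3 were higher and 5 lower, and of the 3 adipocyte markers 1 was higher and 2 lower. Their part in these results was not tested.

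The last comparison asks how these genes differed between n-Sen and proliferating cells. More members were lower than higher in n-Sen cells, 18 against 8, with 6 that did not pass. This comparison called 67.1% of the 19264 genes tested, 34.0% as higher and 33.1% as lower, so the members' share of 81.2% is to be read against a high background. Their median log2 fold change, n-Sen over proliferating, was -0.18, against 0.00 over all genes. The groups did not overlap for 29 members, where 83.4% of all genes showed no overlap. All 19 macrophage markers tested were higher in n-Sen cells, at a median log2 fold change of 4.22. Of the 14 fibroblast markers, 12 were higher and 2, Pdgfra (-3.17 ± 0.09, adjusted p = 4.73e-15) and Thy1 (-0.22 ± 0.05, adjusted p = 0.00155), were lower. Epithelial markers gave 1 higher and 4 lower of 5, at a median of -3.33, and summed to 8.28 and 8.69 CPM in n-Sen cells against 86.3 and 78.6 CPM in proliferating cells. Endothelial markers gave 1 higher and 2 lower of 4, among them the receptor Kdr (-3.13 ± 0.14, adjusted p = 1.42e-12). The adipocyte markers Lpl (-1.18 ± 0.08) and Pparg (-1.25 ± 0.13) were the 2 lower of 3. The part of these markers in the values below was not tested. RO3306, nutlin3a, BI-2536, time in culture and senescence cannot be told apart here.

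The genes that recycle the 2 thiol systems were lower. Gsr fell by 1.77 ± 0.08 on the log2 scale (adjusted p = 2.83e-12), to 0.29 of its level in proliferating cells, and Txn1 by 1.35 ± 0.05 (adjusted p = 3.58e-13). Txnrd1 (-0.68 ± 0.05, adjusted p = 2.61e-09) and Srxn1 (-0.40 ± 0.06, adjusted p = 2.87e-05) fell with them. The 4 enzymes of the pentose phosphate pathway were also lower: G6pdx by a log2 fold change of -0.94 ± 0.07 (adjusted p = 1.18e-09), Pgd of -0.67 ± 0.05 (adjusted p = 4.15e-09), Tkt of -0.56 ± 0.05 (adjusted p = 6.07e-08) and Taldo1 of -0.14 ± 0.06 (adjusted p = 0.0409). The last of these is uncertain, since Taldo1 failed by DESeq2's test (adjusted p = 0.113) and without proliferating replicate 1 (adjusted p = 0.0706), n-Sen replicate 1 (adjusted p = 0.379) or n-Sen replicate 2 (adjusted p = 0.0570). The pump Abcc1 fell by 1.05 ± 0.06 (adjusted p = 2.02e-11).

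Glutathione genes went both ways, 5 higher and 7 lower. Supply of cystine and the ligase fell, with Slc7a11 at -0.80 ± 0.13 (adjusted p = 2.86e-05), Gclc at -0.42 ± 0.07 (adjusted p = 2.75e-05) and Gclm at -0.25 ± 0.06 (adjusted p = 0.00193; adjusted p = 0.0537 without n-Sen replicate 1). Gss, the enzyme after the ligase, was 2.05 times higher in n-Sen cells (1.04 ± 0.07, adjusted p = 1.20e-09). Transferases divided by gene and not by class. Gstm1 had 10.6 and 11.9 CPM in n-Sen cells against 32.6 and 29.0 CPM in proliferating cells (-1.44 ± 0.10, adjusted p = 1.01e-09). Its neighbour Gstm2 had 23.4 and 22.0 CPM in n-Sen cells against 12.1 and 11.8 CPM in proliferating cells (0.93 ± 0.10, adjusted p = 2.90e-07). These adjacent mu-class genes therefore differed in opposite directions without overlap. Gstp1 had 17.8 and 21.2 CPM in n-Sen cells against 33.0 and 29.9 CPM in proliferating cells (-0.68 ± 0.10, adjusted p = 8.78e-06), and Mgst1 had 15.3 and 17.2 CPM in n-Sen cells against 10.7 and 9.18 CPM in proliferating cells (0.71 ± 0.12, adjusted p = 5.23e-05). Gsta3 was higher (2.53 ± 0.46, adjusted p = 1.13e-04) on 128 counts over the n-Sen libraries and 20 over the proliferating ones. Gpx4 was slightly higher (0.20 ± 0.05, adjusted p = 0.00313). Gsta1, on 17 counts in n-Sen and 50 in proliferating cells, was lower (-1.67 ± 0.62, adjusted p = 0.0241), a call lost by DESeq2's test (adjusted p = 0.140) and without proliferating replicate 2 (adjusted p = 0.193), n-Sen replicate 1 (adjusted p = 0.213) or n-Sen replicate 2 (adjusted p = 0.0504).

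Of the haem and quinone genes, Cbr3 (1.38 ± 0.12, adjusted p = 2.76e-08) and Hmox1 (0.51 ± 0.07, adjusted p = 4.86e-06) were higher in n-Sen cells, as was catalase (Cat, 0.51 ± 0.06, adjusted p = 1.42e-06). Nqo1 had overlapping libraries and did not pass (-0.09 ± 0.08, adjusted p = 0.31), except without n-Sen replicate 2 (adjusted p = 0.0438). Blvrb (-0.35 ± 0.11, adjusted p = 0.0117) and Prdx1 (-0.14 ± 0.05, adjusted p = 0.0152) were lower, and neither passed without n-Sen replicate 1 (adjusted p = 0.149 and 0.215). DESeq2's test did not call Blvrb either (adjusted p = 0.0594). Bach1 was lower (-0.20 ± 0.08, adjusted p = 0.0306), but not by DESeq2's test (adjusted p = 0.0937), nor without proliferating replicate 2 (adjusted p = 0.337), n-Sen replicate 1 (adjusted p = 0.129) or n-Sen replicate 2 (adjusted p = 0.0745). Nfe2l2 did not pass (0.11 ± 0.07, adjusted p = 0.163), but did without proliferating replicate 1 (adjusted p = 0.0252), and Keap1 (0.10 ± 0.07, adjusted p = 0.212), Gsta4 (-0.11 ± 0.11, adjusted p = 0.374), Abcc4 (-0.16 ± 0.10, adjusted p = 0.177) and Osgin1 (0.03 ± 0.19, adjusted p = 0.884) did not pass.

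Levels can be set against each other between genes only per length, here as mean CPM per kilobase of exon (n = 2). Hmox1 ranked first in the 3 senescent groups, with 539 in alkaline medium, 611 in control medium and 183 in n-Sen cells, against 129 and rank 3 in proliferating cells. Txn1 ranked first in proliferating cells with 292, and had between 112 and 119 in the senescent groups. Nqo1 held the second rank in control medium with 163, against 62.0 in alkaline medium, 41.6 in n-Sen cells and 44.4 in proliferating cells. Gsta1 and Gsta3 filled the lowest 2 ranks in each group, all below 1.

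Other genes of the pathway came from a list of 120 symbols in 7 classes, of which 119 matched a single row. In alkaline against control medium, 14 of the 114 tested were higher, 17 lower and 83 did not pass, at a median log2 fold change of -0.02. That share is nearer the background of 20.0% than the share of the 32 members is. Control medium against n-Sen cells gave 11 higher and 8 lower of 115, also at a median of -0.02. Leaving out a library took the number lower in control medium to between 3 and 5, with 3 without n-Sen replicate 1 or control medium replicate 2, 4 without control medium replicate 1 and 5 without n-Sen replicate 2. Alkaline medium against n-Sen cells gave 20 higher and 16 lower, with 11 higher without n-Sen replicate 1 and 13 without n-Sen replicate 2. In n-Sen against proliferating cells 58 were higher and 35 lower of 115. The share of these genes that passed was 16.5% in control medium against n-Sen cells, where 11.1% of all genes tested passed. It was 31.3% in alkaline medium against n-Sen cells, beside 24.8% of all genes. For n-Sen against proliferating cells it was 80.9%, beside 67.1% of all genes, 34.0% as higher and 33.1% as lower.

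**Figure D4:**
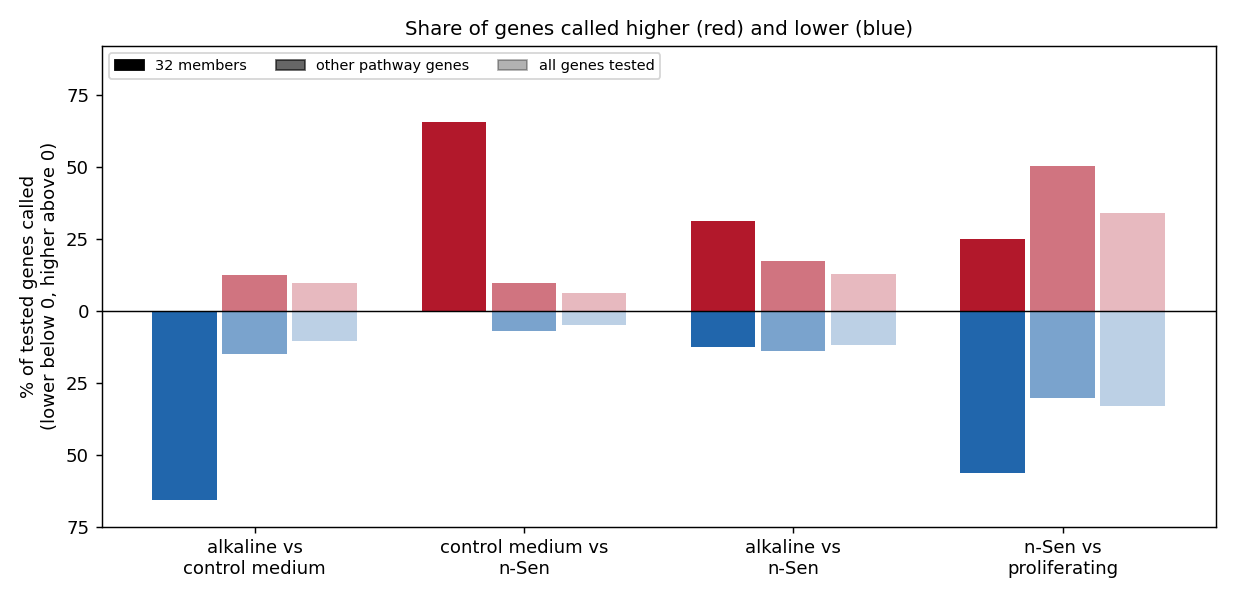
Percentage of tested genes that passed as higher (red, above 0) or lower (blue, below 0) in each comparison, for the 32 members (dark), the other pathway genes (middle) and all genes tested (pale). In the first 2 comparisons the members' bar reaches 65.6% on one side and is absent on the other, while the other pathway genes and all genes stand near each other on both sides.

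The partners and upstream factors of NRF2 gave 4 higher genes of 14 in alkaline against control medium. Maff, a small MAF partner, had 138 and 143 CPM in alkaline medium, 120.3 and 113 CPM in control medium, 73.8 and 74.9 CPM in n-Sen cells and 75.9 and 73.1 CPM in proliferating cells. It was higher in alkaline than in control medium (0.26 ± 0.05, adjusted p = 4.19e-04) and higher in control medium than in n-Sen cells (0.65 ± 0.05, adjusted p = 2.23e-08), so that its top libraries were the alkaline ones. Mafg, also a small MAF, was higher in alkaline medium (0.24 ± 0.05, adjusted p = 0.00174), as was Dpp3, a peptidase that can bind KEAP1 (0.25 ± 0.06, adjusted p = 0.00224; adjusted p = 0.0626 without alkaline medium replicate 2). Sqstm1, which encodes the KEAP1-binding autophagy receptor p62, had 1023 and 1009 CPM in alkaline medium, 916 and 957 CPM in control medium, 751 and 787 CPM in n-Sen cells and 383 and 353 CPM in proliferating cells. The rise of Sqstm1 in alkaline over control medium (0.11 ± 0.04, adjusted p = 0.0444) was lost without control medium replicate 1 (adjusted p = 0.131), alkaline medium replicate 1 (adjusted p = 0.235) or alkaline medium replicate 2 (adjusted p = 0.126), whereas control medium was above n-Sen cells by 0.28 ± 0.04 (adjusted p = 1.38e-04).

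Among the other detoxifying genes, 1 was higher and 5 were lower of 19 in alkaline against control medium. The higher one was Akr1b3, the aldose reductase, with 123 and 126 CPM in alkaline medium against 86.7 and 82.8 CPM in control medium (0.55 ± 0.05, adjusted p = 2.31e-08). Ephx1, an epoxide hydrolase, was lower (-0.37 ± 0.04, adjusted p = 8.15e-07), as were Fth1, the ferritin heavy chain (-0.26 ± 0.04, adjusted p = 1.37e-05), and Slc48a1, a haem transporter (-0.33 ± 0.04, adjusted p = 5.14e-06). Ugdh, which makes the sugar donor for glucuronidation, had 366 and 351 CPM in alkaline medium, 354 and 339.7 CPM in control medium, 143 and 158 CPM in n-Sen cells and 272 and 275 CPM in proliferating cells. Its media overlapped (0.04 ± 0.04, adjusted p = 0.589), and control medium was above n-Sen cells by 1.20 ± 0.05 (adjusted p = 4.18e-13). In the wider thioredoxin class, 2 were higher and 4 lower of 22 between the media, led by Txnip, the thioredoxin-binding protein that also restrains glucose uptake. Txnip had 89.9 and 80.9 CPM in alkaline medium, 132 and 139 CPM in control medium, 107 and 109 CPM in n-Sen cells and 32.3 and 34.1 CPM in proliferating cells (-0.68 ± 0.06, adjusted p = 3.47e-09). Of the further glutathione genes, 3 were higher and 5 lower of 30. The strongest falls of this class, 2 of at least 1 on the log2 scale, are in the counts only and are not named here. Smaller changes among the 8 included Ggct, which breaks down gamma-glutamyl peptides (0.37 ± 0.10, adjusted p = 0.00777). Gpx1, the cytosolic peroxidase, was slightly lower (-0.19 ± 0.05, adjusted p = 0.0034), a call lost without alkaline medium replicate 2.

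Sources of oxidants were a class of their own, with 2 higher and 2 lower of 11 between the media. Nox4, the hydrogen peroxide-making NADPH oxidase of fibroblasts, had 79.3 and 84.5 CPM in alkaline medium, 34.8 and 35.0 CPM in control medium, 45.1 and 46.1 CPM in n-Sen cells and 9.65 and 7.73 CPM in proliferating cells. It moved against most of the 32 members, higher in alkaline than in control medium (1.22 ± 0.06, adjusted p = 8.57e-13) and lower in control medium than in n-Sen cells (-0.39 ± 0.08, adjusted p = 0.00163). Pxdn, a matrix peroxidase, was also higher in alkaline medium (0.31 ± 0.05, adjusted p = 4.53e-05). Cybb, the catalytic subunit of the phagocyte oxidase, had 25.0 and 27.4 CPM in alkaline medium, 40.0 and 39.8 CPM in control medium, 27.5 and 32.7 CPM in n-Sen cells and 1.27 and 0.956 CPM in proliferating cells. Cybb was lower in alkaline than in control medium (-0.62 ± 0.07, adjusted p = 1.43e-06). Of the 19 macrophage markers tested between the media, 10 were lower and 9 did not pass. Adgre1, the marker F4/80, had 37.5 and 38.3 CPM in alkaline medium against 58.5 and 53.9 CPM in control medium (-0.58 ± 0.07, adjusted p = 5.76e-07). Lyz2 (-0.06 ± 0.04, adjusted p = 0.358) and Ctss (0.07 ± 0.06, adjusted p = 0.462) were among those that did not pass. The part of macrophages in the fall of Cybb was not tested. Xdh, xanthine oxidoreductase, was lower (-0.54 ± 0.15, adjusted p = 0.0143), and not without control medium replicate 1 (adjusted p = 0.0631) or alkaline medium replicate 1 (adjusted p = 0.0892).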

How the data were processed

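Per the labels' protocols, polyadenylated RNA was made into libraries whose strand is marked by dUTP. The submitters' processing notes name fastp (0.23.2), HISAT2 (2.1.0), the featureCounts program from Subread (2.0.2), and also DESeq2 (1.34.0), on the mouse build mm10. How featureCounts treated strand, and with which annotation release, was not given in the sources used here. Genes that overlap, on either strand, may therefore hold each other's reads. The authors deposited expected counts (estimated counts that need not be whole) per gene in 2 tables: proliferating and n-Sen libraries stand in one, both media in the other. Of the 32 members, 17 had a fractional value in at least 1 library, and 5 share exon bases with another gene.

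Counts were rounded, and genes were kept by filterByExpr. After TMM scaling, the quasi-likelihood test was run in edgeR (4.0.16, under R 4.3.3), and p-values were adjusted by Benjamini and Hochberg, with 0.05 as the threshold. Comparisons within a table used its 4 libraries, and those between tables a fit of all 8. All 32 members passed the low-count filter in each comparison. The SE is the absolute log2 fold change over the square root of F. The biological coefficient of variation was between 0.0579 and 0.0646. DESeq2 1.42.0 was an alternative. The procedure was also run on simulated data, with fewer changed genes than these comparisons called and a single spread set for all genes. That setting differs from these data, and no result given here rests on it.

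The members, the lists and the tests were chosen with earlier results of these data known. All members are named. Of the other pathway genes that passed, only some are named, at most 4 per class and comparison. Those of NADPH supply and efflux are in the counts only, as are those that passed in n-Sen against proliferating cells. Replicate numbers are shared across groups, but the labels do not say that they mark a shared culture.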

Additional observations from a re-analysis of the deposited data

How the results depend on the processing

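Of the members called, 15 of 21 passed in each of 10 alternatives in alkaline against control medium, 15 of 21 in control medium against n-Sen cells, 9 of 14 in alkaline medium against n-Sen cells and 20 of 26 in n-Sen against proliferating cells, and no called member changed direction. The alternatives were another scaling, DESeq2's test, no low-count filter, unrounded counts, a replicate block, another set of libraries in the fit, and leaving out each of 4 libraries, where a lone library is assumed to vary like the others. In alkaline against control medium, members lower numbered between 17 and 21 with a library left out and between 18 and 23 otherwise, with 18 by DESeq2, and members higher stayed at 0 in each, also at an unadjusted p under 0.05. In control medium against n-Sen cells, members higher numbered between 15 and 19 and between 20 and 22, with 0 lower in each and 1, Keap1, at an unadjusted p under 0.05. In n-Sen against proliferating cells, members lower numbered between 12 and 17 and between 14 and 18. With a library left out, members lower in alkaline medium against n-Sen cells numbered between 2 and 4, other pathway genes higher there between 11 and 15, and other pathway genes lower in control medium against n-Sen cells between 3 and 5; the fewer samples are part of that setting. Fitting the replicate number as a block gave 23 members lower between the media, 21 higher in control medium against n-Sen cells, and 8 higher and 17 lower in n-Sen against proliferating cells. It added Gsta1 (-1.96) and Taldo1 (-0.14) to the members lower between the media and took Taldo1 from those lower in n-Sen cells. Deviations of same-numbered libraries correlated at -0.00084, -0.0036 and -0.0040 in these comparisons, so the numbers were not taken to pair the samples.

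Signs turned, with a library left out, only for members that had not passed. Between the media, log2 fold changes then ranged from -0.28 to 0.012 for Slc7a11, from -0.044 to 0.022 for Gpx4, from -0.59 to 0.23 for Gsta3 and from -0.053 to 0.0069 for Tkt. In control medium against n-Sen cells they ranged from -0.031 to 0.27 for Gsr, from -0.028 to 0.078 for Gstm2, from -0.065 to 0.18 for Gstp1 and from -0.11 to 0.020 for Tkt. In alkaline medium against n-Sen cells they ranged from -0.023 to 0.12 for Nfe2l2, from -0.049 to 0.079 for Gss, from -2.74 to 1.14 for Gsta1, from -0.018 to 0.080 for Prdx1, from -0.072 to 0.19 for Cbr3 and from -0.13 to 0.0012 for Tkt. In n-Sen against proliferating cells they ranged from -0.21 to 0.032 for Nqo1 and from -0.15 to 0.20 for Osgin1; the cause was not tested. Depth limits Gsta1, with 16 to 62 counts per group, and Gsta3 in proliferating cells, with 20.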
